A study of Mus musculus with 3 samples.

Results

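The sequence described here is 4 places of the mouse genome build mm9: the chromosome 1 segment from 85200001 to 85350000 (the segment at 85 Mb), the chromosome 1 segment from 87400001 to 87600000 (the segment at 87 Mb), and the whole of contigs 1_random and 8_random, which hold sequence assigned to chromosomes 1 and 8 but not placed on them. Cut into windows of 1 kb, they gave 150, 200, 1232 and 850 windows in this order, or 2432 of the 2725763 nuclear windows, and 0.0892% of the nuclear length. The places were picked because earlier work on these same litters had shown high levels and recurring counts there. Their levels, shared counts and litter ratios are therefore given as a description, with no test.

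RNA came from 2-cell embryos collected at embryonic day 1.5, in 3 litters that form 1 group. Each library held the pooled embryos of a litter, and how many embryos each held is not given in the sources used here. Mothers were LSD1 FL/FL and ZP3::Cre negative, on a mixed background with C57/Bl6J. LSD1 is a histone demethylase gene, its floxed allele can be removed by Cre recombinase, and ZP3::Cre is expressed in growing oocytes, so these mothers kept the gene. The fathers were wild type, named as CB6 in one label and as C57/Bl6J in another. The design has no other genotype or treatment, so it gives levels and their spread between litters.

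As background, Sp100 is an interferon-induced protein of PML nuclear bodies, the small structures in the nucleus that gather PML, SUMO-modified proteins and chromatin factors. Sp110 and Sp140 are related proteins that read chromatin, and in mouse their genes lie next to Sp100 on chromosome 1. Some mouse genomes also carry on chromosome 1 a long array of Sp100-rs, a repeated unit in which part of Sp100 is fused to the unrelated gene Csprs. In the RefSeq gene table of assembly GRCm38.p6, Sp110, Sp140 and Sp100 follow each other on chromosome 1, and Csprs is assigned to the same chromosome. An mm9 annotation was not used here, so neither Sp110 nor Sp100 could be placed on these windows, the gene name of the cluster was not checked against the data, and the places are called by position below.

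All 4 places were covered well above the nuclear mean in every litter. The segment at 85 Mb had 13.5, 20.8 and 17.6 RPKM in litters 1 to 3, and the segment at 87 Mb had 10.1, 15.4 and 12.5 RPKM. RPKM here is alignments per kb for each 1000000 alignments on nuclear sequence. Contig 1_random had 8.23, 12.3 and 10.3 RPKM, and contig 8_random had 4.67, 6.79 and 5.72 RPKM. Litter 2 was highest and litter 1 lowest in each place. The means were 17.3 ± 3.67, 12.7 ± 2.67, 10.3 ± 2.03 and 5.73 ± 1.06 RPKM in the same order (SD, n = 3), against 0.367 RPKM over all nuclear sequence. The order of the places was the same in every litter. The ranges over litters overlapped between the chromosome 1 segments and between the segment at 87 Mb and contig 1_random, while contig 8_random lay below the other places in all litters.

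Together the 4 places held 1.81% of the nuclear alignments of litter 1 (95% Wilson interval 1.809% to 1.818%). The share was 2.71% (2.704% to 2.716%) for litter 2 and 2.28% (2.271% to 2.280%) for litter 3, and no interval overlapped another. These intervals treat each alignment as an independent count. Reads of amplified RNA that carry no molecular identifier do not each stand for a molecule, so the intervals are too narrow. They do not measure the spread between litters. Nuclear depth was 34014013, 32431630 and 40474940 alignments. Alignments that shared their start with an earlier one of that litter were 72.5% ± 4.44 of those in the 4 places and 70.4% ± 4.80 over all nuclear sequence. Start counts recur between the places, as described further on, so a level may be that of several copies together and not of a single place.

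Within each place, coverage was gathered in a minority of windows. Of the 2432 windows, 613 (25.2%) reached 1 RPKM in all 3 litters, against 1.19% of all nuclear windows. They were 65 windows of the segment at 85 Mb, 71 of the segment at 87 Mb, 340 of contig 1_random and 137 of contig 8_random, and they held 96.6% of the alignments of the 4 places. Their median level was 20.1 RPKM, and 310 of them reached 10 RPKM in all litters, 79 reached 50 RPKM and 22 reached 100 RPKM. At the other end, 1087 windows (44.7%) had no alignment in any litter, of which 566 lay in contig 1_random and 445 in contig 8_random. A count of 0 allows up to 3 alignments, or 0.0882, 0.0925 and 0.0741 RPKM in a window of litters 1 to 3.

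The highest window of each place had almost the same values in the 4 places. Positions 85282001 to 85283000 on chromosome 1 had 110, 139 and 297 RPKM in litters 1 to 3, and positions 87479001 to 87480000 had 105, 136 and 311 RPKM. Positions 1123001 to 1124000 of contig 1_random had 109, 144 and 321 RPKM. Positions 21001 to 22000 of contig 8_random had 111, 149 and 305 RPKM. Litter 3 stood above the others in all 4 windows. At the threshold, the window just inside in the segment at 85 Mb (85258001 to 85259000) had 1.29, 10.7 and 1.013 RPKM. The window just outside (85295001 to 85296000) had 0.970, 25.6 and 2.08 RPKM, so a window can miss the threshold through 1 litter.

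**Figure D1:**
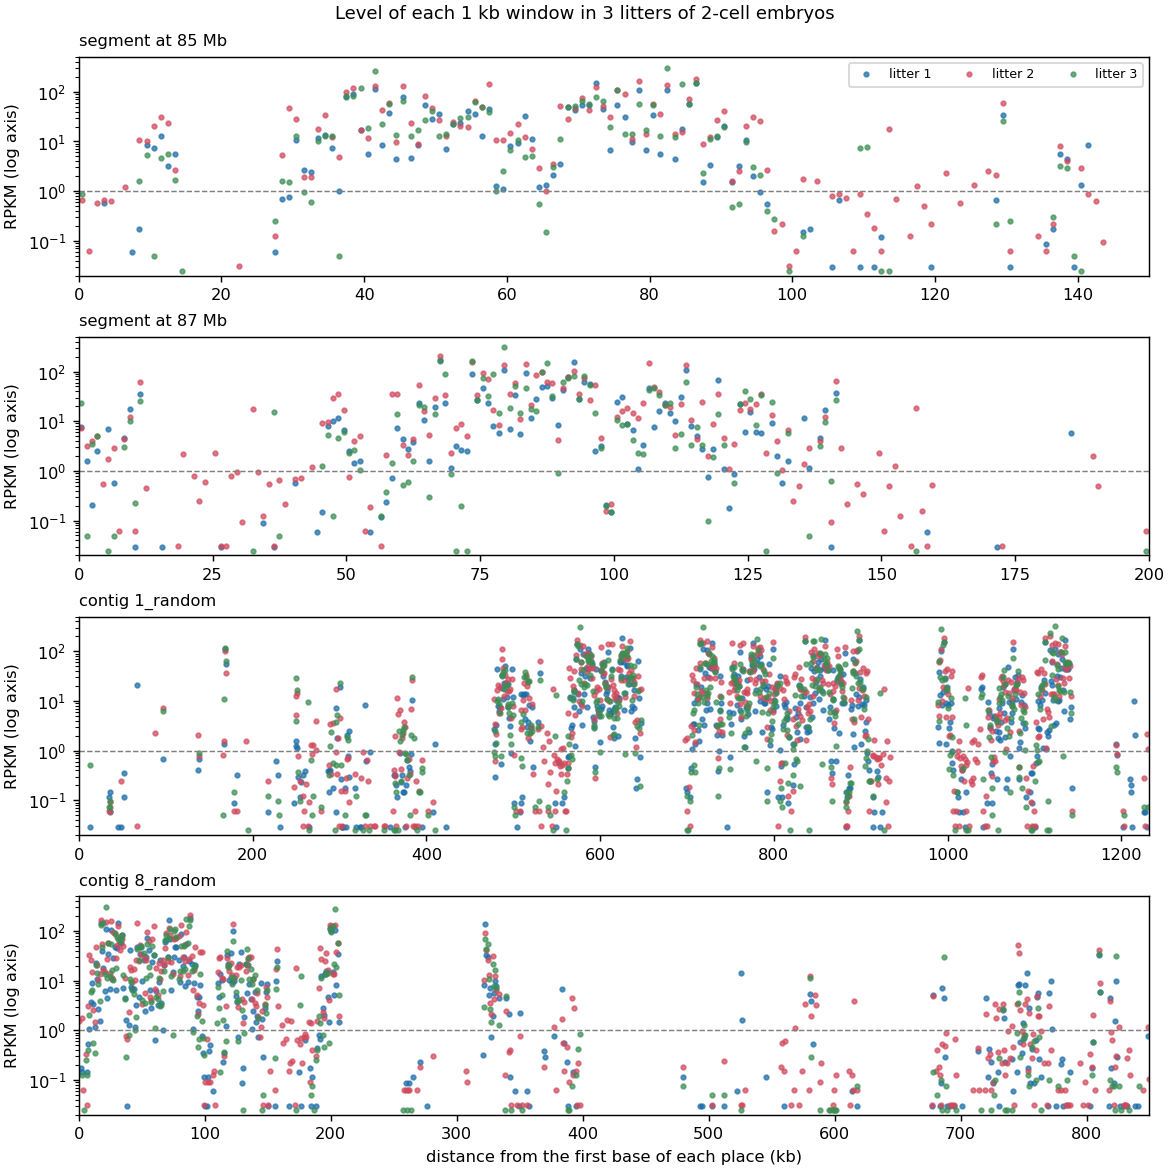
Level of each 1 kb window (RPKM, log axis) against the distance from the first base of each place (kb), 1 panel per place and 1 point per litter; the dashed line is 1 RPKM, and windows with no alignment in a litter have no point. The high windows lie in a few stretches with empty sequence between them, and 1087 of 2432 windows have no point in any litter.

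Joining windows at 1 RPKM over gaps of up to 20 kb, and keeping groups of at least 5 such windows, gave 11 stretches. A single stretch of 86 kb (85209001 to 85295000) held 96.7% of the alignments of the segment at 85 Mb, at 29.2 ± 5.88 RPKM. A stretch of 96 kb (87446001 to 87542000) held 95.6% of those of the segment at 87 Mb, at 25.2 ± 5.11 RPKM. Contig 1_random had 5 stretches, of which the longest, 202 kb from 705001 to 907000, held 46.2% of its alignments at 29.0 ± 5.65 RPKM. In contig 8_random the first 158 kb held most of the signal: its stretch of 150 kb from 8001 to 158000 had 77.2% of the alignments at 25.1 ± 4.91 RPKM. One stretch of contig 8_random, from 321001 to 340000, varied little between litters, with 13.6, 13.1 and 12.8 RPKM. The longest stretches of the 4 places had levels of 25.1 to 29.2 RPKM, closer to each other than the whole places. This holds for the longest stretches only: all 11 stretches ranged from 6.91 to 40.6 RPKM. The share of windows with no alignment in any litter ranged over the places from 18.0% in the segment at 85 Mb to 52.4% in contig 8_random.

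Signal also lay before both chromosome 1 segments. The 50 kb before the segment at 85 Mb had 9.94 ± 2.41 RPKM, and the 50 kb before the segment at 87 Mb had 14.7 ± 3.77 RPKM. The 50 kb after the segment at 87 Mb had 0.673 ± 0.0907 RPKM. Between the segments, chromosome 1 had no alignment in any litter from 85343146 to 87343678, a run of 2000533 bases. The next longest run without alignments between 84 and 89 Mb was 41694 bases. Whether the long run is sequence or an assembly gap of mm9 was not tested, as the genome of that build was not used here.

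At the level of single bases, runs covered in all 3 litters were joined over gaps of up to 100 bases and kept from 100 bases up. This gave 608 covered blocks: 66 in the segment at 85 Mb, 67 in the segment at 87 Mb, 334 in contig 1_random and 141 in contig 8_random. They spanned 477541 bases, 19.6% of the 4 places, and held 93.7% to 95.5% of the alignments of each place. Most were short, with a median of 408.5 bases, 225 under 300 bases and 159 of 1 kb or more. The longest spanned 5280 bases and lay in contig 1_random.

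The blocks with the most alignments were repeated from place to place. The leading block of the segment at 85 Mb (85269383 to 85273581, 4199 bases) had 80.5, 79.5 and 74.3 RPKM in litters 1 to 3. That of the segment at 87 Mb (87490824 to 87494977, 4154 bases) had 85.40, 77.5 and 76.5 RPKM, and that of contig 1_random (1134547 to 1138729, 4183 bases) had 84.8, 79.5 and 78.5 RPKM. The leading block of contig 8_random (30408 to 34604, 4197 bases) had 81.2, 80.9 and 74.2 RPKM. Within each litter these 4 blocks lay close together, and each was highest in litter 1.

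Alignment starts showed the repetition base by base. A start position was used where every litter had 10 or more alignments. Of 5258 such positions, 3823 (72.7%, 95% Wilson interval 71.5% to 73.9%) had the same count in each litter as another position of the 4 places, on an offset shared by 10 or more of them. The interval treats positions as independent, but a position counts only by matching another, so it is too narrow. With 20 or more alignments in every litter required, and the same support for an offset, the share was 24.4% of 528 positions. The share on shared offsets was not computed over other nuclear sequence. By place the share at 10 alignments was 83.1% of 623 positions in the segment at 85 Mb and 59.2% of 605 in the segment at 87 Mb. It was 71.7% of 2912 positions in contig 1_random and 76.9% of 1118 in contig 8_random. Small counts also recur with no shared offset: the 3 counts recurred somewhere on nuclear sequence for 96.2% of the positions of the 4 places, against a background of 83.8% of 214730 nuclear positions. Recurrence by itself is thus near the background, and the count of 3823 rests on the shared offset. An alignment list that gives a read at every place it fits would hold equal counts at identical sequence. That this made the counts equal was not tested, because no sequence of the build was used here.

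Linked by these matches, the 3823 positions formed 890 groups, called patterns here, or 4.30 positions per pattern. All positions of a pattern have the same 3 counts. Different patterns can hold the same counts where no shared offset links them, so 890 is not the number of distinct counts. They carried 234082 alignments in the 3 litters, against 56502 when each pattern was counted at a single position, a ratio of 4.14. There were 293 patterns at 2 positions, 347 at 3 to 5 positions and 250 at 6 or more, and the largest pattern lay at 17 positions. In all, 133 patterns lay in all 4 places and 105 in a single place. A chromosome 1 segment and contig 8_random shared 426 patterns, although mm9 assigns that contig to another chromosome.

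**Figure D2:**
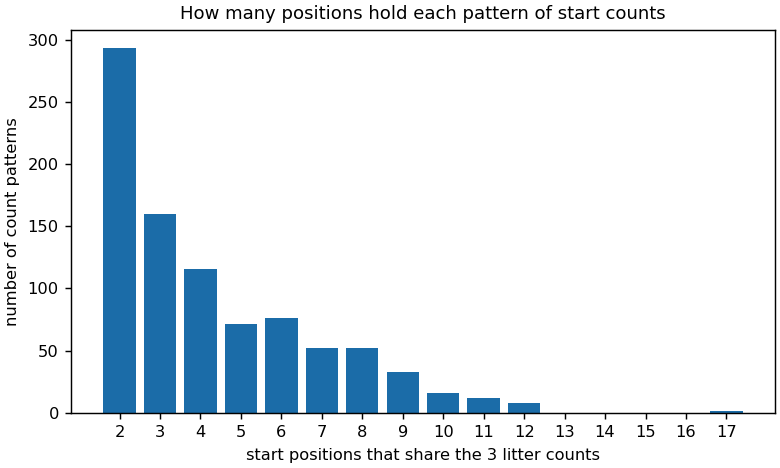
Number of patterns (y axis) by the number of start positions in the pattern (x axis), for the positions used above. A pattern is a group of positions linked by equal counts on shared offsets, and different patterns can hold the same counts. Of 890 patterns, 293 lie at 2 positions and 1 lies at 17.

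Pairs of positions with equal counts ran in both orientations in nearly equal number, with 4250 of 8370 pairs (50.8%) in opposite orientation, over 286 offsets. The segment at 85 Mb shared 71.4% of its positions with contig 1_random, and these matched 41.6% of the positions of that contig. It shared 58.9% with contig 8_random (47.3% of that contig) and 29.7% with the segment at 87 Mb (26.3% of that segment). Within the segment at 85 Mb, 102 positions matched each other, all in opposite orientation. The segment at 87 Mb had no match within itself. The contigs shared 1398 positions of contig 1_random (48.0%) and 743 of contig 8_random (66.5%).

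**Figure D3:**
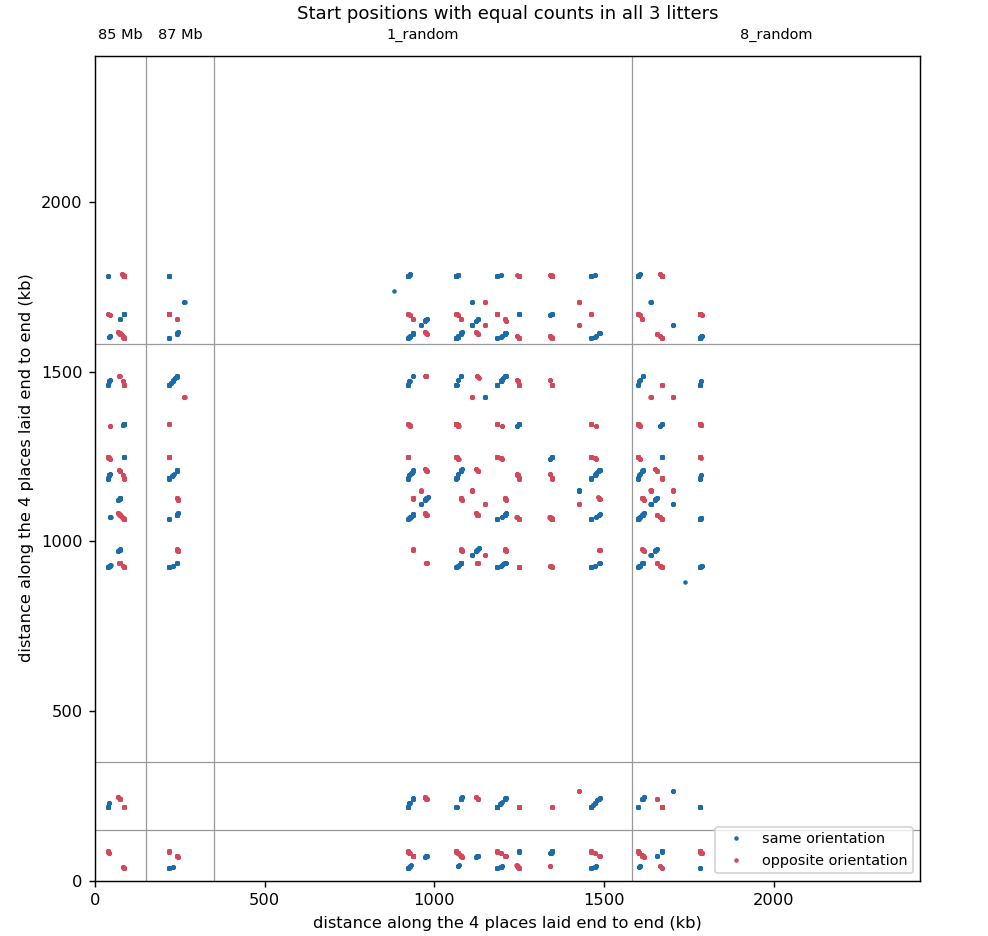
Pairs of start positions with equal counts in all 3 litters on a shared offset, with both axes giving the distance along the 4 places laid end to end (kb) and grey lines between places; blue is the same orientation and red the opposite one. Pairs link every place with every other, and the segment at 87 Mb has no pair with itself.

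The same-orientation distance with the most pairs was 141818 bases in contig 1_random, with 75 pairs. Counting distances within 500 bases of it gave 149 pairs. A distance of 277168 bases had 69 pairs and 142 within 500 bases, and without litter 1 it was the leading distance. Contig 8_random had a leading distance of 182220 bases with 65 pairs, and 129 within 500 bases. Between the chromosome 1 segments the leading distance was 2229449 bases, with 36 pairs. The leading distances thus differed between the places. The longest run of equal counts was a pair of inverted arms of contig 1_random, at 708984 to 721792 and 988782 to 1001590. Each arm spans 12809 bases, and the arms lie 267 kb apart. All 7163 covered start positions were equal between the arms in all litters, with 13762, 19021 and 31310 alignments per arm, or 31.6, 45.8 and 60.4 RPKM. The arms were chosen as the longest run, so their agreement is by choice.

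**Figure D4:**
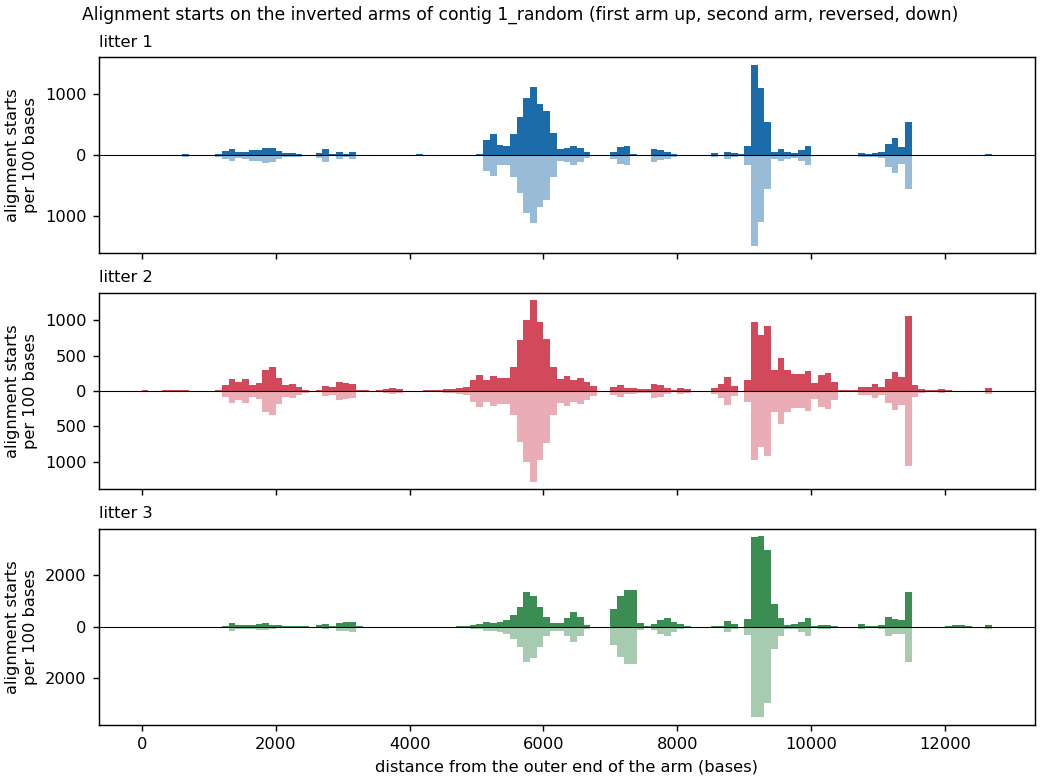
Alignment starts per 100 bases (y axis) along the inverted arms of contig 1_random (x axis, distance from the outer end in bases), the first arm drawn upward and the second, reversed, downward, 1 panel per litter with its own scale. The arms mirror each other at all 7163 covered positions, and the peak near 9000 bases is the highest in litters 1 and 3, the one near 6000 bases in litter 2.

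Linking blocks that share at least 10 pairs gave 10 families, with 68 of the 608 blocks. These hold 55.3% of the alignments of all blocks on 31.0% of their bases. Because the link requires equal counts in all 3 litters, copies of a family resemble each other across litters by construction, and a block with fewer equal positions stays outside a family of its length. The 4.2 kb family had 10 copies of 4154 to 4233 bases, with 1 in each chromosome 1 segment, 6 in contig 1_random and 2 in contig 8_random. Its median level was 81.7, 79.5 and 74.3 RPKM in litters 1 to 3. Its ratio of litter 2 to litter 1 was 0.908 to 1.00 over the copies, and that of litter 3 to litter 1 was 0.864 to 0.931. It is the family that varied least between litters, and it held 15.3% of the block alignments.

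The 2.0 kb family had 12 copies in all 4 places, at a median of 102, 126 and 104 RPKM in litters 1 to 3. All 12 copies were highest in litter 2, by 1.22 to 1.27 times litter 1. A family of 20 blocks, also in all 4 places, had medians of 54.7, 83.8 and 132 RPKM. All 20 were lowest in litter 1, and 18 were highest in litter 3. It joined 11 longer blocks of 1422 to 2946 bases and 9 shorter ones of 880 to 1105 bases. The longer blocks had medians of 61.9, 92.9 and 167 RPKM, and the shorter ones had 39.98, 65.1 and 65.9 RPKM. Litter 3 thus stood above litter 2 in the longer blocks and close to it in the shorter ones.

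The shortest family, of 8 copies of 280 to 283 bases, was lowest in litter 2. It had medians of 177, 73.6 and 181 RPKM in litters 1 to 3, and litter 2 was 0.412 to 0.448 times litter 1 in the 8 copies. A family of 7 blocks of 1360 to 2667 bases had medians of 57.6, 69.4 and 34.3 RPKM and was lowest in litter 3 in all copies. No block of the segment at 85 Mb was linked to it, but a block of 2657 bases there (85248107 to 85250763) had 44.8, 57.6 and 29.9 RPKM, also lowest in litter 3. The 2.4 kb family had 3 copies, with medians of 33.8, 77.0 and 47.3 RPKM and litter 2 at 2.26 times litter 1. The other 4 families, of 2 blocks each, ranged in median length from 776 to 4789 bases. A block pair of 775 and 777 bases was the highest of these, at a median of 131, 248 and 274 RPKM.

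**Figure D5:**
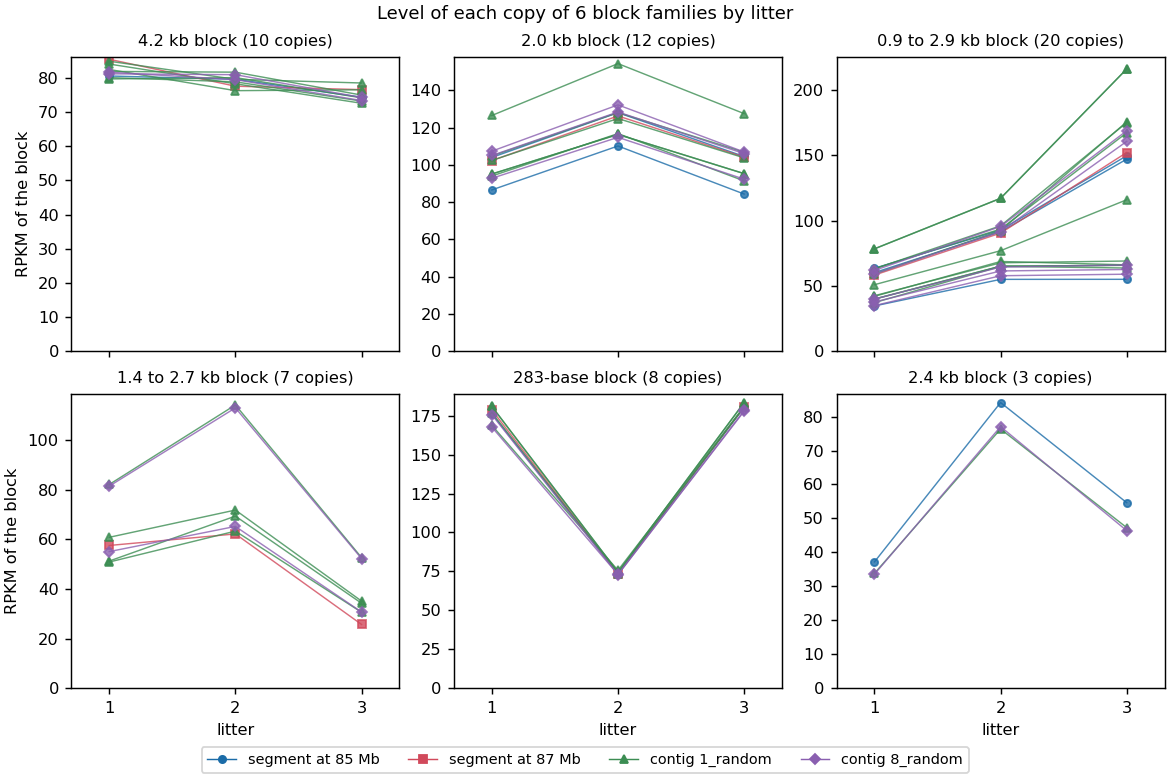
Level of each block (RPKM, linear axes from 0) by litter for 6 block families, with 1 line per block and the place given by marker and colour. The panel headings count blocks as copies, although blocks of the 20-block family can lie side by side. Lines are nearly flat in the 4.2 kb family, peaked at litter 2 in the 2.0 kb family and lowest at litter 2 in the 283-base family, while those of the 20-block family part between litters 2 and 3.

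The families recurred in a similar order around the 4.2 kb block. In 7 of its 10 copies the nearest block of the 20-block family lay 6.84 to 9.17 kb from its edge, with the 2.0 kb block beyond it on the same side. In 4 of these copies (1 in the segment at 85 Mb, 2 in contig 1_random and 1 in contig 8_random) the gaps were 6.84 to 6.93 kb and 11.6 to 11.8 kb. In the other 3 (1 in the segment at 87 Mb and 2 in contig 1_random) they were 9.08 to 9.17 kb and 21.3 to 22.4 kb. Between the 4.2 kb block and the 20-block family, 3 of the 4 compact copies had a 2.4 kb block and a block of 2213 to 2215 bases, 130 bases apart, which together span 4771 to 4783 bases. The fourth compact copy had a single block of 4704 bases there, so the split among compact copies rests on a gap just over the 100 bases that were joined. The 3 wide copies had a block of 4661 to 4874 bases. Nearer the 4.2 kb block, they also had a block of 998 to 1045 bases, at a mean of 110 to 117 RPKM. Such a block was not particular to the wide copies. The copies at 622774 to 626972 and 773350 to 777551 of contig 1_random, not among the 7, each had a block of 1052 bases nearby. These blocks had a mean of 109 RPKM, with blocks of 5280 and 5142 bases beyond them. A block of 280 or 283 bases lay 102 to 175 bases from each of the 10 copies of the 4.2 kb block, and in the 7 copies above it lay on the opposite side from the 20-block family. Of these short blocks, 8 are the 283-base family. The other 2, at 590009 to 590291 and 1138893 to 1139175 of contig 1_random, had too few equal positions to be linked to it. They had 156, 72.6 and 172 RPKM and 167, 72.5 and 177 RPKM in litters 1 to 3, also lowest in litter 2. In the remaining 3 copies of the 4.2 kb block, the 7-block family stood 12.3 to 12.9 kb away, on the side of the short block. Among these, the copy at 68739 to 72931 of contig 8_random had the same order at a longer distance. Its 20-block family lay 10743 bases away and its 2.0 kb block 14763 bases away, both opposite the short block. In the copies at 622774 and 773350 of contig 1_random, the 20-block family lay 43934 and 52775 bases away, on the side of the short block. The families, the order and both spacings were defined after the values were seen. Levels, stretches and spacings describe this build, and the number of copies in the genome of these mice was not measured.

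Sequence outside the 4 places carried part of the same counts. Of the 5258 positions, 1791 (34.1%) matched 16 stretches on 9 sequences, among them chromosome 1 outside the segments. Several of these stretches were led by positions in no block family, so not all 16 match a family. Examples are contig Un_random at 279205 to 280050, with 56 positions, and chromosome 4 at 19225740 to 19226472, with 27. The stretch with the most matching positions, 375, lay on chromosome 1 at 84980642 to 84998822 and had 48.0 ± 11.5 RPKM. A stretch of 2131 bases on chromosome 5, from 138160984 to 138163114, had 207 matching positions, most of them with the 2.0 kb family, at 180, 190 and 223 RPKM. Stretches of chromosome 1 at 85113759 to 85120244 and 87344895 to 87351737, before the segments, had 38.9 ± 5.70 and 38.2 ± 6.22 RPKM. The 7-block family led the matches of 2 stretches of 292 bases on chromosome 1, at 85162523 to 85162814 and 87389876 to 87390167, with 39 positions each. The 283-base family led those of contig Un_random at 3831729 to 3836447, with 48 positions. Alignments at these 3 families therefore cannot be assigned to the 4 places alone. Only the family that led each stretch is named, and in the first stretch it had 257 of the 375 positions. The other families are thus not shown to be confined to the 4 places.

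Litter 2 stood above litter 1 in most of the windows. In 934 windows with at least 30 alignments in sum, the median log2 ratio of litter 2 to litter 1 was 0.81, against 0.26 over the nuclear windows of the same filter, with a pseudocount of 0.1 RPKM. It was above 0 in 77.2% of the windows, against 54.4% of the nuclear ones. Start counts recur between these windows, so the same litter ratio can be counted at several copies. The shares of windows here, and of blocks below, are therefore not shares of independent members. With each start counted a single time per litter the median of these places was 0.29. The nuclear median was not computed with that counting. The 0.29 therefore cannot be set against the nuclear 0.26, which counts all alignments. With all alignments, the medians by place were 0.89 in the segment at 85 Mb and 0.97 in the segment at 87 Mb. They were 0.80 in contig 1_random and 0.62 in contig 8_random. The median for litter 3 over litter 1 was 0.01, against 0.00. In the 613 windows at 1 RPKM in all litters, the median was 0.61 for litter 2 over litter 1 and 0.21 for litter 3 over litter 1. Nuclear windows at that level had medians of 0.05 and 0.07. Among the 613 windows at 1 RPKM, 346 (56.4%) were highest in litter 2, against a background of 33.6% of the nuclear windows at that level. Litter 1 was highest in 87 and litter 3 in 180.

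A block enters a family only through positions with 10 or more alignments in every litter, so families favour high blocks that are present in all litters, and the values of both sets are given as a description. The 540 blocks in no family had a median level of 14.7 RPKM and a median log2 ratio of litter 2 to litter 1 of 0.81, and 371 (68.7%) were higher in litter 2. The 68 blocks in families had 81.8 RPKM and 0.39, and 51 (75%) were higher in litter 2. The spread between litters also went with depth. Where a window averaged 100 to 1000 alignments, the coefficient of variation between litters had a median of 58.2% in the 4 places and 75.9% over nuclear windows. Above 1000 alignments it was 35.2% in the 4 places and 29.8% over nuclear windows. Whether the litters differ in the RNA of the embryos or in its amplification cannot be told apart.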

How the data were processed

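Embryos of each litter were lysed directly, and RNA was amplified with SPIA (a Nugen Ovation kit), which makes cDNA from RNA at a constant temperature, per the labels. Covaris shearing and Illumina library construction followed. The submitters' processing notes name Bowtie and the build mm9. Which version was run, and how it treated reads that fit several places, is not given in the sources used here. Per the file headers, the authors deposited coverage (signal) in bedGraph form, made from a sorted bam: whole numbers of reads lying over a base, with no scaling.

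Coverage on nuclear sequence was split into ungapped alignments of 72 bases, which left no negative start in any litter; strand is unknown. RPKM is computed from these alignments, and each mean ± SD is over the 3 litters. The recovery and the search for equal counts were tested on simulated data. Windows, blocks and offsets named are the highest of each place, as a rule written with the design. Members and lists were chosen with earlier results of these data known. Families, stretches, spacings, the inverted arms and the matches outside the places were defined after their values were seen. No p-value was computed. Alternatives were thresholds, window sizes, gaps, pseudocounts, filters, distinct starts, scaling by the median of ratios and leaving out each litter. The tools were numpy 2.4.6, networkx 3.6.1, scipy 1.17.1, pandas 2.3.3 and matplotlib 3.10.9 under Python 3.11.15.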

Additional observations from a re-analysis of the deposited data

How the results depend on the processing

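Over 57 alternative values of the results, 13 moved and 44 did not. Moved means by over 1 SD for levels and ratios, by over 1.5 times for counts, and any change for the repeat distance. The SD is over litters for levels. For ratios it is over the medians of the 4 places, which share counts (0.15 for litter 2 over litter 1, 0.036 for litter 3 over litter 1). For the share of equal start counts, moved means outside the 95% Wilson interval of the reported value, which treats positions as independent. The levels of the 4 places stayed within 1 SD with the other scaling and with distinct starts. They were 15.6 to 19.2, 11.3 to 14.0, 9.28 to 11.3 and 5.20 to 6.26 RPKM when a litter was left out. With 3 litters, leaving 1 out cannot move a mean by 1 SD. Those runs are among the 44 by the rule itself and show nothing about stability. The 613 windows became 1033 with windows of 500 bases and 356 with windows of 2 kb, which changes how many windows there are, and 618 to 700 without a litter. The 608 blocks became 992 with no gap joined, 194 with gaps of up to 500 bases joined, and 542 to 605 without a litter. The share of equal start counts was 81.3% at 5 or more alignments, 24.4% at 20 or more (528 positions, too few for a leading distance), 66.7% with offsets supported by 20 positions and 79.8% to 82.3% without a litter. The repeat distance was 141818 to 277168 bases without a litter, the second value without litter 1. Counting distinct starts lowered the log2 ratio of litter 2 to litter 1 to 0.29, and a filter of 100 alignments gave 0.10 for litter 3 over litter 1; the cause was not tested. No paired analysis was possible because all litters belong to 1 group. Depth limits windows with few alignments, and copies with identical sequence cannot be told apart.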
